A study of Mus musculus with 18 samples.

Results

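The MHC class II antigen presentation genes followed here are H2-Aa, H2-Ab1, H2-Eb1, H2-DMa, H2-DMb1, Cd74 and Ciita. They were chosen by symbol as the chains of the class II molecules, the invariant chain and the class II transactivator, and all 7 were found among the 24419 symbols of the expression table. RNA-seq was performed on infarcted left ventricle from 18 male C57BL/6 mice aged 8 weeks, with 3 mice in each of 6 groups. The groups were a control group, called sham in the study, and acute myocardial infarction (AMI) groups taken 10 min, 1 h, 6 h, 24 h and 72 h after the proximal left anterior descending coronary artery had been ligated under sodium pentobarbital. The labels give no time after operation for the sham mice, and the same 3 sham mice served as the reference for all 5 times. Expression is given as FPKM, in which fragments are scaled by transcript length and by the number mapped in the library. Levels are thus relative to the library, and a comparison between mice also depends on the other RNA in it. The libraries were made from whole tissue, in which fewer cells of a type and less RNA per cell cannot be told apart.

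Class II molecules are pairs of an alpha and a beta chain that carry peptides from endocytosed proteins to the cell surface, where CD4 T cells read them. The invariant chain encoded by Cd74 guides newly made pairs to the endosome and fills their groove, the cathepsins cut it down to a short remnant, and the H2-DM heterodimer exchanges this remnant for peptide. The whole set is switched on by the transactivator CIITA, which binds no DNA itself but sits on the RFX, CREB and NF-Y proteins assembled on a shared X and Y box promoter module. Dendritic cells, B cells and many macrophages carry class II in the resting state, and in the heart it is a feature of the resident and recruited myeloid cells. The C57BL/6 strain makes no functional alpha chain for the E molecule, and H2-Ea-ps was listed at 0 FPKM in all 18 mice.

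Of the 7 genes, 5 lie within 197 kb of chromosome 17 (GENCODE M21 on mm10), from 34119541 to 34316674, in the order H2-DMa, H2-DMb1, H2-Ab1, H2-Aa and H2-Eb1. Ciita lies on chromosome 16 from 10480059 to 10528418. All members are annotated as protein-coding genes. The letters of the shared promoter module are shown for the alpha chain gene H2-Aa, the beta chain gene H2-Eb1 and, beside them, the related genes H2-Ob and H2-Eb2, because 3 of the 4 hold the X and Y boxes in the same order. Each stretch runs from 130 to 21 bases before the transcript start of RefSeq on GRCm38.p6, the assembly of mm10, on the strand of the gene. Capitals mark the core of the X box, searched as AACNNATG, and the Y box, searched as GATTGG, on either strand. The letters were chosen after the sequences had been seen.
H2-Aa, chr17:34287844-34287953, minus strand: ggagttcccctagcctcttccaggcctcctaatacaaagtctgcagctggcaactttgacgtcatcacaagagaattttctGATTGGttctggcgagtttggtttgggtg
H2-Eb1, chr17:34305737-34305846, plus strand: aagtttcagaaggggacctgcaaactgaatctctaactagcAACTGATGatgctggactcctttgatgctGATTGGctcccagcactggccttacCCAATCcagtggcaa
H2-Ob, chr17:34238775-34238884, plus strand: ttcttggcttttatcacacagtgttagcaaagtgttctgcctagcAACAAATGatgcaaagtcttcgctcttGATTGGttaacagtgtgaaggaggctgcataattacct
H2-Eb2, chr17:34325545-34325654, plus strand: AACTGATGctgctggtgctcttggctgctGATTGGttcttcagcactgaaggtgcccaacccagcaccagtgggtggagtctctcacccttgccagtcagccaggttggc

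In H2-Eb1 the X box core started 89 bases and the Y box 60 bases before the transcript start. In H2-DMb1 they started 92 and 62 bases before it. H2-Aa held the Y box letters 49 bases before the start and no match to the X box letters in this window. Of the RefSeq windows for H2-DMa, one held the Y box letters 199 bases before its start and the other held neither motif. Among the 32851 windows of the same length in the mouse genome, 7.71% held the X box letters and 14.6% the Y box letters. The X box core followed by the Y box on the same strand, with starts 20 to 50 bases apart, was found in 30 windows, or 0.0913%. These included H2-Eb1, H2-DMb1, H2-DMb2, H2-Eb2 and H2-Ob, and no overlap between both motifs was possible at this spacing. The promoters of H2-Ab1, Ciita and Cd74 are not reported here.

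**Figure D1:**
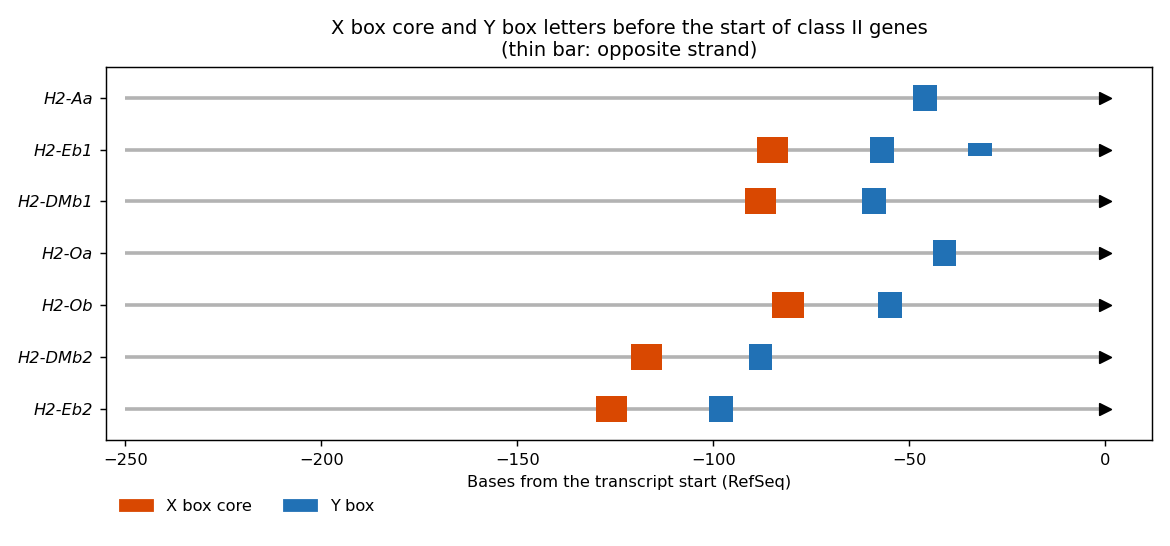
Positions of the X box core (orange) and the Y box (blue) in the 250 bases before the RefSeq transcript start of 7 class II genes, with the horizontal axis in bases from the start (black arrow) and thin bars for the opposite strand. In H2-Eb1, H2-DMb1, H2-Ob, H2-DMb2 and H2-Eb2 the orange bar precedes a blue bar, while H2-Aa and H2-Oa show a blue bar only.

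In the sham heart the classical chains and the invariant chain were well expressed, while the peptide exchange genes and the transactivator were low. Mean FPKM was 78.4 ± 6.50 for Cd74 (SD, n = 3 for every group), 63.0 ± 4.43 for H2-Ab1, 40.5 ± 1.25 for H2-Eb1 and 35.1 ± 2.63 for H2-Aa. It was 4.43 ± 0.262 for H2-DMa, 2.95 ± 0.590 for H2-DMb1 and 0.232 ± 0.0220 for Ciita. Among the 13333 genes tested, Cd74 ranked 1042 by its sham mean, H2-DMb1 ranked 9249 and Ciita 12709. This order of the 7 genes was the same in the sham, 10 min, 1 h and 6 h groups, and at 24 h and 72 h the mean of H2-Ab1 was above that of Cd74. The first 6 genes reached 1 FPKM in all 18 mice. Ciita did so only in the 3 mice at 72 h and entered the tests through that group alone.

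Cd74 lies apart from the others, on chromosome 18 from 60803848 to 60812652. Some reads of these genes can be shared with other genes. H2-DMb1 and H2-DMb2 are near copies, with 94.6% identity over 1219 aligned bases of their longest coding transcripts and an identical run of 221 bases, so that the split of reads between them is uncertain. The annotated exons of H2-DMa share 360 bases with Brd2 on the opposite strand, and those of Ciita share 329 bases with Dexi. The library kit is not stated to mark the strand. Mean FPKM of Brd2 was 24.2 in sham and 37.1 at 72 h, and that of Dexi was 13.5 in sham and 10.0 at 72 h. The part of these reads in the levels of H2-DMa and Ciita was not tested.

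**Figure D2:**
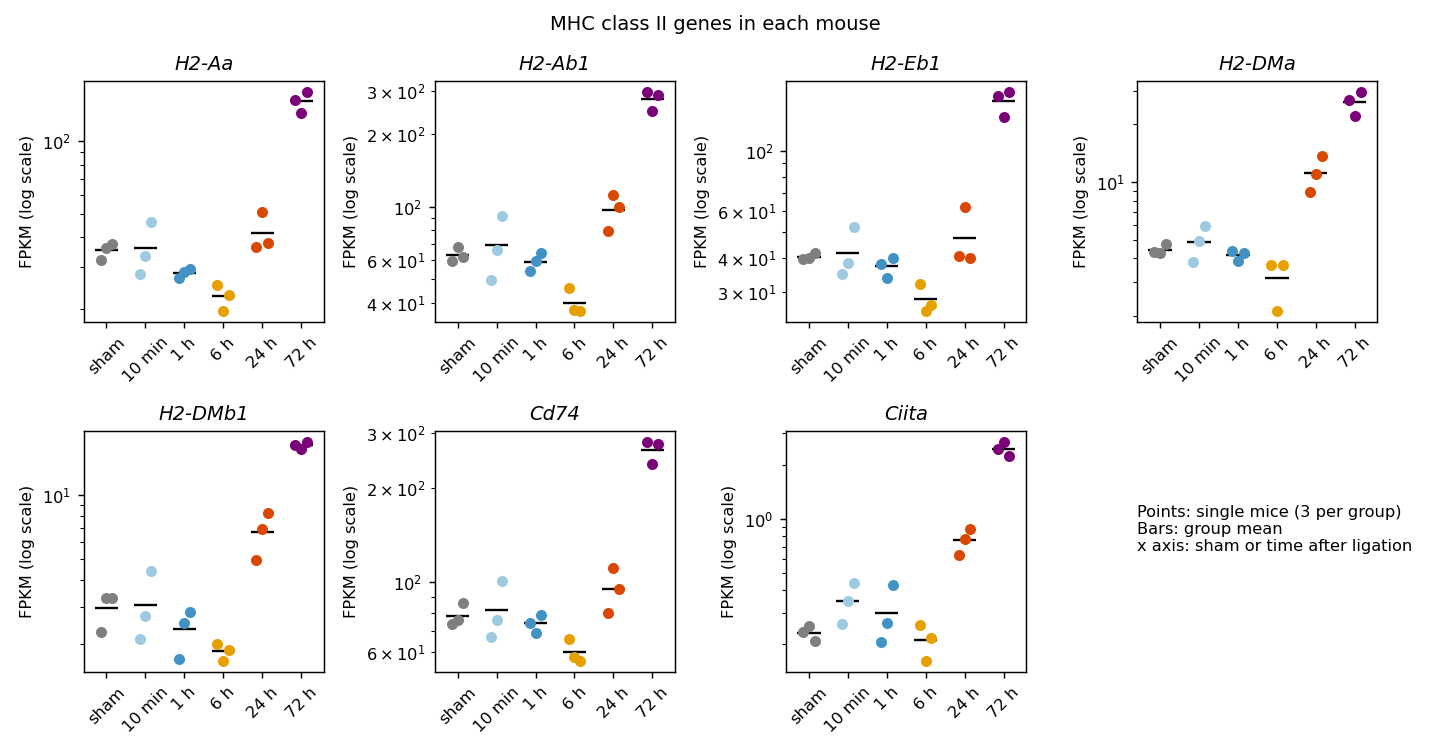
FPKM of the 7 class II genes in each of the 18 mice (points, vertical log axis) by group (horizontal axis, sham or time after ligation), with bars at the means of 3 mice. In all 7 panels the 3 mice at 72 h lie above the other 15, and for H2-Aa, H2-Ab1, H2-Eb1, H2-DMa, H2-DMb1 and Cd74 the 6 h mice lie below the sham mice.

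The earliest groups address whether class II expression had moved within the first hour of ischaemia. At 10 min the group was widely spread. The alpha chain gene H2-Aa was 27.9, 33.4 and 46.3 FPKM at 10 min against 32.2, 36.0 and 37.2 in sham. H2-Ab1, the beta chain that pairs with it, was 49.8, 66.3 and 91.5 FPKM against 59.4, 68.0 and 61.7. The third mouse at 10 min had the highest value of its group for all 7 genes, including 101 FPKM of Cd74, 52.2 of H2-Eb1, 5.87 of H2-DMa and 4.39 of H2-DMb1. The log2 fold changes on log2(FPKM + 1) were between 0.00 for H2-Aa and 0.13 for Ciita, and without that mouse those of all genes but Ciita were below 0. Ciita was 0.259, 0.350 and 0.437 FPKM at 10 min, above the 0.234, 0.252 and 0.208 of sham with no overlap, as were 12.2% of all genes tested. limma called 0 of the 7 genes at an adjusted p under 0.05, with 0 also at an unadjusted p under 0.05, and it called 0.0451% of all genes.

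At 1 h the group was tighter. H2-Aa was 27.0, 28.6 and 29.4 FPKM, below all 3 sham mice, with a log2 fold change of -0.30 ± 0.07 (SE) and an adjusted p of 0.187. Of all genes tested, 10.9% lay below sham with no overlap at this time. The other classical chains overlapped sham, with H2-Ab1 at 54.0, 59.5 and 64.0 FPKM and H2-Eb1 at 38.1, 33.7 and 39.9 FPKM. The invariant chain gene Cd74 was 74.5, 69.0 and 78.9 FPKM, H2-DMa was 4.35, 3.87 and 4.29 FPKM and H2-DMb1 was 1.70, 2.50 and 2.83 FPKM, all overlapping sham. Ciita was 0.205, 0.263 and 0.427 FPKM. limma called 0 of the 7 genes at 1 h, with H2-Aa the 1 gene at an unadjusted p under 0.05, against 0.609% of all genes called.

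At 6 h most of the 7 genes were lower than in sham. H2-Aa, H2-Ab1, H2-Eb1, H2-DMb1 and Cd74 fell, while H2-DMa and Ciita did not pass the test. Thus 5 of the 7 genes were called lower and 0 higher by limma, where 16.6% of all genes tested were called lower and 11.5% higher. H2-Ab1 was 46.2, 37.2 and 36.9 FPKM at 6 h, giving 0.636 of its sham mean (log2 fold change -0.64 ± 0.11, adjusted p = 0.0073). H2-Aa was 25.1, 19.6 and 23.0 FPKM, giving 0.643 of sham (-0.62 ± 0.11, adjusted p = 0.0088). H2-Eb1, the beta chain of the E molecule, was 32.1, 25.4 and 26.9 FPKM, giving 0.694 of sham (-0.52 ± 0.10, adjusted p = 0.0112). In each of these chains the highest mouse at 6 h, which was the first, lay below the lowest sham mouse.

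Cd74 was 65.9, 58.0 and 56.2 FPKM at 6 h against 73.6, 75.7 and 85.8 in sham (0.766 of sham, -0.38 ± 0.09, adjusted p = 0.0250). H2-DMb1, the beta chain of the peptide exchanger, was 2.01, 1.67 and 1.88 FPKM against 2.27, 3.30 and 3.29 (0.627 of sham, -0.46 ± 0.13, adjusted p = 0.0402). Its partner H2-DMa was 3.68, 2.12 and 3.68 FPKM against 4.31, 4.25 and 4.73, with a log2 fold change of -0.41 ± 0.17 and an adjusted p of 0.113. So 6 of the 7 genes lay below sham with no overlap, as did 30.2% of all genes tested. Ciita was 0.257, 0.162 and 0.218 FPKM, with a log2 fold change of -0.02 ± 0.07 and an adjusted p of 0.808. The calls of H2-Aa and H2-Ab1 held under every alternative run, whereas the count of 5 became 3 without sham mouse 2 or the second 6 h mouse and 2 without sham mouse 3. H2-DMb1 and Cd74 lost their calls in all of these and H2-Eb1 lost its call without sham mouse 3 (adjusted p = 0.0524).

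At 24 h the set was divided. The peptide exchange genes, the transactivator and H2-Ab1 were above sham, while H2-Aa, H2-Eb1 and Cd74 were not distinguished from it. limma called 4 of the 7 genes higher and 0 lower, against 26.1% of all genes higher and 11.3% lower. The same 4 genes lay above sham with no overlap, as did 39.3% of all genes tested. H2-DMa was 8.83, 11.1 and 13.6 FPKM, 2.52 times its sham mean (log2 fold change 1.15 ± 0.15, adjusted p = 0.0050). H2-DMb1 was 4.94, 6.94 and 8.23 FPKM, 2.27 times sham (0.95 ± 0.19, adjusted p = 0.0131). For both genes of the exchanger the third mouse was the highest and the first the lowest.

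Ciita was 0.628, 0.770 and 0.885 FPKM at 24 h, 3.29 times its sham mean. Its log2 fold change was 0.51 ± 0.09 (adjusted p = 0.0101), and this value understates the ratio because 1 FPKM was added to so low a level. H2-Ab1 was 79.2, 112 and 99.2 FPKM, 1.53 times sham (0.60 ± 0.13, adjusted p = 0.0174). Its partner H2-Aa, at 36.2, 50.7 and 37.7 FPKM, overlapped sham (0.22 ± 0.14, adjusted p = 0.241). H2-Eb1 was 40.6, 61.8 and 40.1 FPKM (0.20 ± 0.17, adjusted p = 0.377), and Cd74 was 79.9, 111 and 95.5 FPKM (0.27 ± 0.13, adjusted p = 0.142). In all of H2-Aa, H2-Ab1, H2-Eb1 and Cd74 the second mouse was the highest of the group. H2-DMa kept its call under every alternative run and Ciita under every one in which it was tested, a filter on the mean FPKM having left it out. H2-DMb1 lost its call without sham mouse 1. H2-Ab1 lost its call with no filter on low values and without any one of the 3 sham mice. The count of 4 became 2 without sham mouse 1.

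At 72 h all 7 genes were several times their sham level. All were called higher by limma, where 53.1% of all genes were called higher and 24.2% lower, and all 7 lay above sham with no overlap, as did 55.1% of all genes. Both counts include Ciita, which entered the tests only through the 72 h mice, the group in which it was high. H2-Ab1 was 298, 248 and 290.0 FPKM, 4.42 times sham (log2 fold change 2.12 ± 0.09, adjusted p = 2.19e-07). H2-Aa was 149, 131 and 160.5 FPKM, 4.17 times sham (2.03 ± 0.09, adjusted p = 3.27e-07). H2-Eb1 was 160.1, 134 and 166 FPKM, 3.79 times sham (1.89 ± 0.09, adjusted p = 3.58e-07). The second mouse was the lowest of the group for all 3 chains.

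Cd74 reached 281, 238 and 276 FPKM at 72 h, 3.39 times sham (1.75 ± 0.09, adjusted p = 6.46e-07). H2-DMa was 26.8, 22.04 and 29.6 FPKM, 5.90 times sham (2.31 ± 0.11, adjusted p = 3.67e-07). H2-DMb1 was 17.2, 16.4 and 17.8 FPKM, 5.79 times sham (2.21 ± 0.11, adjusted p = 6.54e-07). By the ratio of means the exchanger genes thus stood above the chains they serve, although this difference was not tested. Ciita was 2.45, 2.70 and 2.25 FPKM, 10.6 times sham, with a log2 fold change of 1.49 ± 0.08 (adjusted p = 1.11e-06). The median gene of all those tested had a log2 fold change of 0.29 at 72 h, and median-of-ratios scaling brought this median to 0.02. With that scaling the log2 fold changes at 72 h were between 1.34 for Ciita and 2.01 for H2-DMa, and all 7 calls held. By level, H2-Ab1 ranked 323 and Cd74 ranked 341 of 13333 genes at 72 h, and Ciita 10944.

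**Figure D3:**
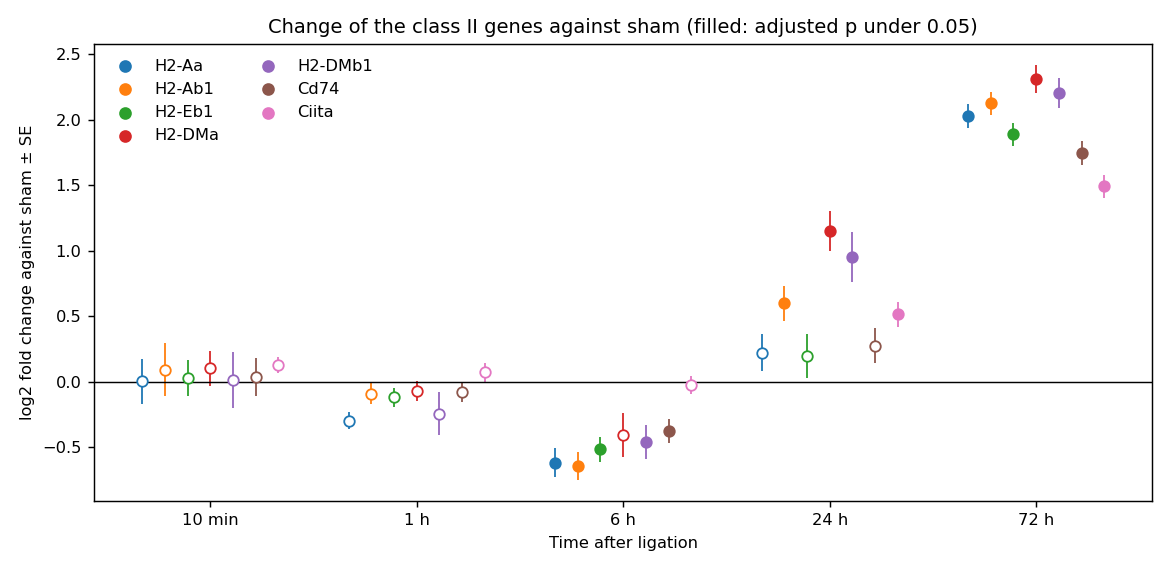
Log2 fold change of each gene against sham (vertical axis, on log2(FPKM + 1), bars are SE from limma with 3 against 3 mice) by time after ligation (horizontal axis), filled where the adjusted p was under 0.05. No point is filled at 10 min or 1 h, 5 filled points lie below 0 at 6 h, 4 lie above 0 at 24 h and all 7 lie between 1.49 and 2.31 at 72 h. At 10 min the points of all genes but Ciita do not hold their side of 0 when single mice are left out.

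The turn after 6 h was tested directly between AMI groups, which are separate mice. Between 6 h and 24 h all 7 genes were called higher by limma, against 12.3% of all genes, and all 7 had no overlap, as did 36.2% of all genes. The log2 fold changes were 1.56 ± 0.22 for H2-DMa, 1.41 ± 0.18 for H2-DMb1, 1.24 ± 0.16 for H2-Ab1, 0.84 ± 0.16 for H2-Aa, 0.71 ± 0.19 for H2-Eb1, 0.65 ± 0.15 for Cd74 and 0.54 ± 0.10 for Ciita. The adjusted p values ran from 0.0134 for H2-Ab1 and H2-DMb1 to 0.0479 for H2-Eb1. This count rested on single mice, and it was 0 without the second or the third 6 h mouse or without the second 24 h mouse and 3 without the first 6 h mouse. In each of these the 7 genes kept their direction and an unadjusted p under 0.05 in limma. The median of all genes moved by 0.20 between the same groups, and it was 0.01 after quantile normalization, where 3 of the 7 genes were called higher.

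Between 24 h and 72 h all 7 genes were called higher again, against 29.7% of all genes, and all 7 had no overlap, as did 37.3% of all genes. Ciita is again among these 7, having entered the tests only through the 72 h mice. On log2(FPKM + 1) the fold changes were 1.81 ± 0.15 for H2-Aa (adjusted p = 1.67e-04), 1.69 ± 0.18 for H2-Eb1 (adjusted p = 4.97e-04), 1.53 ± 0.15 for H2-Ab1 (adjusted p = 3.17e-04) and 1.47 ± 0.14 for Cd74 (adjusted p = 3.17e-04). H2-DMb1 was at 1.26 ± 0.16 (adjusted p = 0.0011), H2-DMa at 1.17 ± 0.17 (adjusted p = 0.0019) and Ciita at 0.98 ± 0.11 (adjusted p = 6.12e-04). This scale understates Ciita, whose ratio of means was 3.24, against 3.53 for H2-Aa, 3.23 for H2-Eb1, 2.88 for H2-Ab1 and 2.78 for Cd74. All 7 calls of this comparison held under every alternative run.

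Ordered by mean FPKM, 6 h was the lowest group and 72 h the highest for all 7 genes. For H2-Aa, H2-Ab1, H2-Eb1, H2-DMa and Cd74 the next group above 6 h was 1 h, with no overlap of the mice (exact two-sided permutation test, p = 0.1, the smallest that 3 mice against 3 can give). Sham and 10 min were neighbours for all genes but Ciita and overlapped in each of them. The step from 10 min to 24 h had no overlap for H2-DMa, H2-DMb1 and Ciita and overlapped for the other genes. The step from 24 h to 72 h had no overlap for any of the 7 genes, as for 37.3% of all genes tested. For 6 h against 1 h and for 10 min against 24 h the share of all genes without overlap was not computed. Neighbours were set by the same means, so these steps only describe the order of the groups.

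The 7 genes moved together across mice, but their proportions were not fixed. Over the 18 mice the 21 pairs of genes had Pearson correlations of log2(FPKM + 1) between 0.923 and 0.994, values that the difference between groups dominates and that rest on shared libraries. Within groups, as deviations from the group mean, the same pairs ran from 0.255 to 0.915 with a median of 0.645. The ratio of H2-DMa to H2-Aa in the same mouse was 0.126 ± 0.008 in sham, 0.275 ± 0.077 at 24 h and 0.178 ± 0.008 at 72 h. It was above the highest sham mouse in every mouse at 1 h, 24 h and 72 h, and the 3 mice at 24 h were above all the others.

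Within the exchanger the ratio of H2-DMa to H2-DMb1 stayed between means of 1.525 and 1.87 over the 6 groups, with overlapping mice in sham and at 72 h. The ratio of Cd74 to H2-Ab1 was 1.25 ± 0.14 in sham, 1.502 ± 0.069 at 6 h, 0.989 ± 0.024 at 24 h and 0.953 ± 0.0069 at 72 h. Every mouse at 24 h and 72 h lay below the lowest sham mouse, at 1.11. The alpha to beta ratio of H2-Aa to H2-Ab1 was 0.558 ± 0.040 in sham and 0.526 ± 0.027 at 72 h with overlap, and it lay below sham without overlap at 1 h (0.480 ± 0.021) and 24 h (0.430 ± 0.044).

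The other genes of the class II pathway were followed as a list. It held 20 tested genes, among them the H2-O chains, the endosomal proteases, the RFX, NF-Y and CREB proteins and the costimulatory ligands. At 6 h limma called 4 of them higher and 1 lower, where 11.5% of all genes were called higher and 16.6% lower. Their median log2 fold change was 0.08 against -0.08 for all genes and -0.46 for the 7 class II genes, a difference that was not tested. Ctss, the cathepsin S that cuts the invariant chain, was 11.9, 12.1 and 14.1 FPKM in sham and 27.3, 15.8 and 23.8 FPKM at 6 h (log2 fold change 0.74, adjusted p = 0.0298). The others called higher were Lgmn, an asparaginyl endopeptidase of the endosome (0.44), Ctsl, the cathepsin L (0.34), and Cd80, a costimulatory ligand (1.19). The gene called lower was Nfyc, a subunit of the Y box binding protein NF-Y (-0.30).

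By 24 h limma called 7 of these 20 genes higher and 0 lower, where 26.1% of all genes were called higher, and by 72 h 17 higher and 1 lower, where 53.1% were called higher, with median log2 fold changes of 0.31 and 1.03 against 0.13 and 0.29 for all genes. The share of all genes called lower was 11.3% at 24 h and 24.2% at 72 h. Ctss was 74.4, 72.2 and 118 FPKM at 24 h and 649, 648 and 823 FPKM at 72 h, the highest log2 fold change of the list at both times (2.67 and 5.68). Ifi30, a thiol reductase of the endosome, rose from 5.08 FPKM in sham to 24.97 at 24 h and 93.1 at 72 h (2.07 and 3.95). Lgmn rose from 51.3 FPKM in sham to 135 and 533 (1.38 and 3.35). Ctsl was at 1.81 at 72 h. Cd80 was the third largest change of the list at 24 h (1.59, adjusted p = 0.0319).

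CIITA docks on the RFX subunits, among other proteins. Rfx5 was 1.03 FPKM in sham and 1.95 at 72 h (log2 fold change 0.54, adjusted p = 4.19e-04). Rfxap was 4.67 and 4.31 FPKM (-0.09, adjusted p = 0.408), and Rfxank was 5.72 and 6.33 FPKM at 72 h (0.12, adjusted p = 0.188) with 7.91 at 24 h (0.40, adjusted p = 0.0271). Among the NF-Y subunits at 72 h, Nfya was called higher (1.04), Nfyb higher (0.50) and Nfyc lower (-0.20), and Creb1 was called higher (0.59). The chains of the H2-O heterodimer, an inhibitor of H2-DM, were low throughout. H2-Oa was 0.0322 FPKM in sham and 1.10 at 72 h (1.02, adjusted p = 4.65e-05), and H2-Ob was 0.634 and 2.69 FPKM (1.19, adjusted p = 3.12e-05). Neither was called at 6 h or 24 h. H2-Eb2 was 0.0638 FPKM in sham and 0.848 at 72 h (0.79, adjusted p = 8.72e-04). H2-Oa and H2-Eb2 reached 1 FPKM in 72 h mice alone and so entered the tests only through the group in which they were high, and they are 2 of the 17 genes called higher at 72 h.

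H2-DMb2, the near copy of H2-DMb1, was called higher at 24 h and 72 h (1.12, adjusted p = 0.0064, and 1.66, adjusted p = 1.03e-06). Its mean was 0.379 FPKM in sham, 0.727 at 6 h, 2.03 at 24 h and 3.36 at 72 h. The ratio of H2-DMb1 to H2-DMb2 was 7.96 ± 0.87 in sham, 2.77 ± 0.79 at 6 h and 5.12 ± 0.55 at 72 h, and every mouse of the 5 AMI groups lay below the sham mice. Since reads of both genes can be exchanged in the mapping, this ratio carries that uncertainty.

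Ifng, the interferon that is the classical inducer of Ciita, was listed at 0 FPKM in 14 of the 18 mice and was 0.0955 FPKM or less in the others, 3 of them at 72 h. It did not enter the tests. The other 9 genes of the interferon gamma axis had 4 called higher and 2 lower at 6 h, 3 higher and 0 lower at 24 h, and 8 higher and 1 lower at 72 h. Of all genes, 11.5% were called higher at 6 h, 26.1% at 24 h and 53.1% at 72 h. The shares called lower at these times were 16.6%, 11.3% and 24.2%. The median log2 fold changes of the list were 0.30, 0.33 and 0.79, against -0.08, 0.13 and 0.29 for all genes. Irf1, an interferon-induced transcription factor, was 15.9 FPKM in sham and 19.4 at 72 h (0.27, adjusted p = 0.0109) and was not called at 6 h or 24 h. At 6 h the largest log2 fold changes of this list were in Spi1, the myeloid factor PU.1 (1.28), Jak2 (1.13) and Irf8 (1.05). The 3 called at 24 h were Spi1 (2.51), Irf8 (1.39) and Ifngr1, the other receptor chain (0.33). At 72 h the largest were in Spi1 (3.91), Irf8 (2.89) and Socs1, an inhibitor of the pathway (1.40). Ifngr2, a chain of the interferon gamma receptor, was called lower at 6 h and 72 h (-0.86 and -0.41).

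The class I pathway, which presents peptides of the cytosol to CD8 T cells, also had genes that fell at 6 h. Of its 12 tested genes limma called 7 lower and 0 higher at 6 h, 0 in either direction at 24 h, with 0 also at an unadjusted p under 0.05, and 11 higher at 72 h. Of all genes, 16.6% were called lower and 11.5% higher at 6 h, 11.3% lower and 26.1% higher at 24 h, and 53.1% higher at 72 h. The medians of the list were -0.39, -0.02 and 1.183 on the log2 scale, against -0.08, 0.13 and 0.29 for all genes. The fall was in the peptide loading and proteasome genes, with Psmb9 at 9.44 FPKM in sham and 5.28 at 6 h (-0.74), Tapbpl at -0.53 and Psmb8 at -0.52. The class I chains were not called at 6 h, with H2-K1 at 196 and 191 FPKM and H2-D1 at 253 and 308 FPKM, nor was B2m at 133 and 152 FPKM. At 72 h B2m was 411 FPKM (1.62), H2-D1 736 FPKM (1.54) and H2-K1 473 FPKM (1.27), and Nlrc5, the transactivator of class I genes, rose from 1.05 to 4.02 FPKM (1.304). Tap1, a peptide transporter, was at 1.49 and Psmb8 at 1.47. These comparisons share the sham mice with those of the class II genes.

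**Figure D4:**
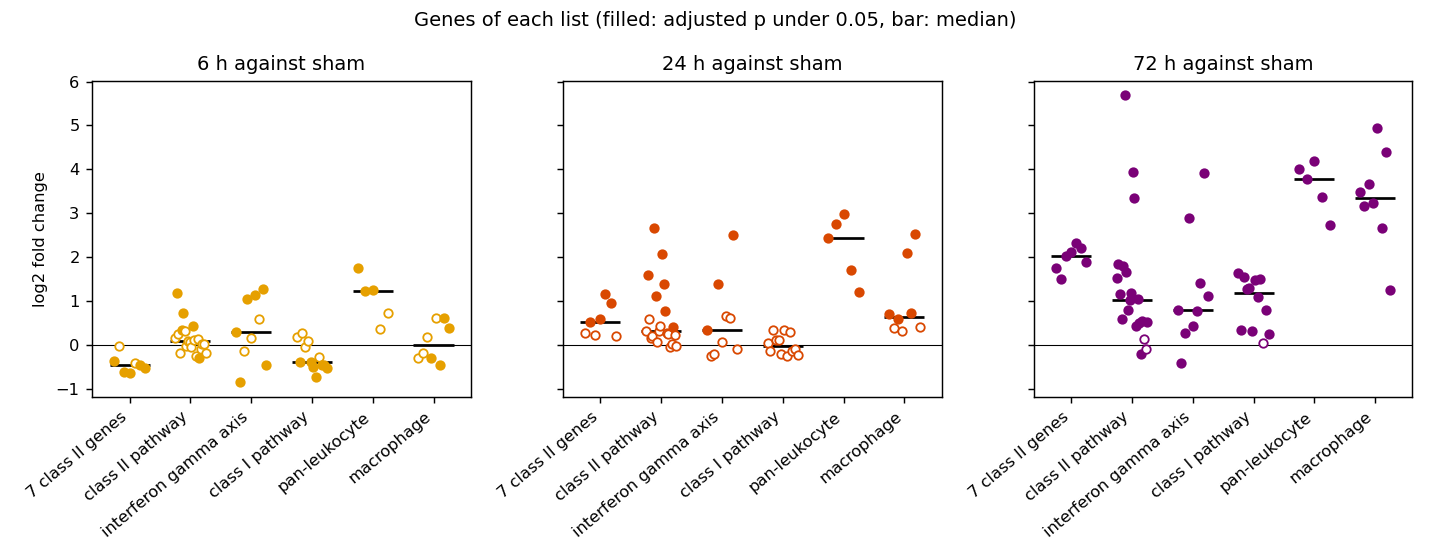
Log2 fold change against sham (vertical axis) of the single genes of 6 lists (horizontal axis) at 6 h, 24 h and 72 h, filled where the adjusted p was under 0.05, with a bar at the median of each list. At 6 h the median of the 7 class II genes is -0.46 and that of the pan-leukocyte genes 1.23, and at 72 h they are 2.03 and 3.79.

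Leukocyte markers were followed in the same mice. The 5 pan-leukocyte genes (Ptprc, Itgb2, Coro1a, Laptm5 and Cd53) had 3 called higher at 6 h and 5 at 24 h and 72 h, and their summed level ran from 13.9 to 16.6 FPKM in sham, 25.5 to 69.1 at 6 h, 81.9 to 204 at 24 h and 254 to 284 at 72 h. At 6 h, 5 of the 7 class II genes were thus called lower in mice in which 3 of the 5 leukocyte genes were called higher. For the same mice limma called 16.6% of all genes lower and 11.5% higher. In the later groups, upward calls covered 26.1% (24 h) and 53.1% (72 h) of all genes. Taking the mean log2(FPKM + 1) of the 7 genes minus that of the pan-leukocyte genes in each mouse, the difference was 2.15 ± 0.03 in sham, 2.06 ± 0.29 after 10 min and 1.91 ± 0.09 after 1 h. It was lower later, with 0.65 ± 0.49 in the 6 h mice, 0.49 ± 0.64 in those of 24 h and 0.51 ± 0.15 in those of 72 h. All 9 mice from 6 h on lay below all 9 earlier mice, the highest of them at 1.11 and the lowest of the earlier at 1.74. The part of leukocyte number in the class II levels was not tested.

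Against the 8 macrophage genes (Adgre1, Csf1r, Cd68, Mertk, C1qa, C1qb, C1qc and Fcgr1) the same difference was 0.06 ± 0.08 in sham, -0.44 ± 0.02 at 6 h, -0.35 ± 0.16 at 24 h and -1.32 ± 0.04 at 72 h. The summed level of these markers was 235 to 273 FPKM in sham, 214 to 247 at 6 h, 364 to 442 at 24 h and 2234 to 2874 at 72 h, with none of the 8 at 0. Of these genes 2 were called higher and 2 lower at 6 h, where 11.5% of all genes were called higher and 16.6% lower. At 24 h 5 were called higher, against 26.1% of all genes, and at 72 h 8, against 53.1%. So the 72 h mice had the most class II RNA of all groups and the least relative to macrophage genes. Against the class I pathway the difference moved the other way, from -0.84 ± 0.03 in sham and -1.004 ± 0.16 at 6 h to 0.17 ± 0.07 at 72 h.

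**Figure D5:**
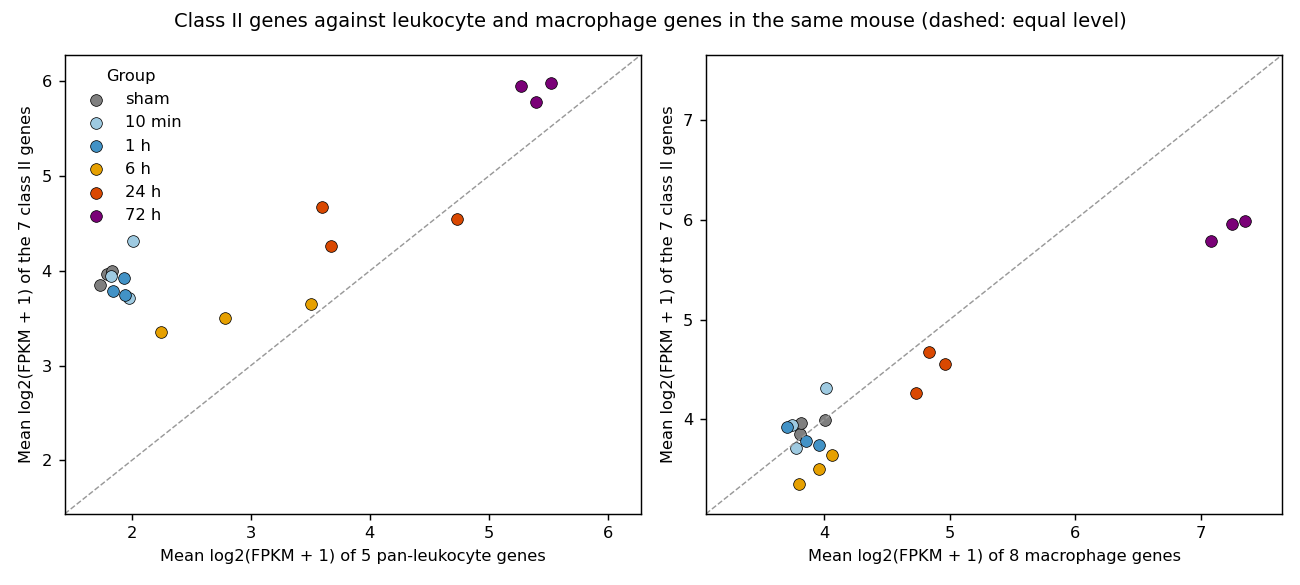
Mean log2(FPKM + 1) of the 7 class II genes (vertical axes) against that of 5 pan-leukocyte genes (left) and 8 macrophage genes (right) in each of the 18 mice, coloured by group, with a dashed line where both are equal. In the left panel the 6 h mice (yellow) lie to the right of and below the sham mice (grey), and in the right panel the 72 h mice (purple) lie 1.32 below the line on average.

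Other cell types that could carry class II were followed by their markers. Of the 8 conventional dendritic cell genes, 7 were tested, with 1 called higher at 6 h, 4 higher and 1 lower at 24 h and 5 higher and 2 lower at 72 h. The share of all genes called higher was 11.5% at 6 h, 26.1% at 24 h and 53.1% at 72 h. The share called lower was 11.3% at 24 h and 24.2% at 72 h. Batf3 is among the genes called higher at 24 h and 72 h. It reached 1 FPKM in 72 h mice alone and so entered the tests only through the group in which it was highest. The summed level of the 8 genes was 6.50 to 7.05 FPKM in sham and 18.5 to 21.5 at 72 h. Flt3, the receptor that supports this lineage, was at most 0.175 FPKM in sham and 3.41, 3.39 and 4.76 FPKM at 72 h, and Cd209a and Itgax were also called higher at 24 h and 72 h. Zbtb46, a lineage factor, was 4.38 FPKM in sham and 3.23 at 72 h (log2 fold change -0.35), and Clec9a was 1.81 and 1.39 FPKM (-0.23), both called lower at 72 h. Xcr1, the marker of the cross-presenting subset, was at most 0.209 FPKM in any mouse.

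The B cell list had 2 of its 7 genes above the filter. Its summed level was 1.92 to 2.69 FPKM in sham, 3.88 to 5.87 at 10 min and 6.80 to 7.98 at 72 h. The defining marker Ms4a1 was at most 0.706 FPKM in any mouse. The 2 tested genes encode the signalling chains of the B cell receptor. Cd79b was called higher at 24 h (0.65, adjusted p = 0.0325) and at 72 h (1.48, adjusted p = 6.96e-06, 5.59 times sham), and Cd79a at 72 h (0.71, adjusted p = 0.0012, 2.41 times sham). Both already lay above sham with no overlap at 10 min, as did 12.2% of all genes, though neither was called. Cd79b was then 2.14 times sham and Cd79a 2.04 times. The 5 T cell genes summed to 0.496 to 0.978 FPKM in sham and 2.60 to 4.39 at 72 h, and the 4 NK cell genes to at most 1.11 FPKM. Resident macrophage genes were mixed at 72 h, with 2 of 5 called higher (Folr2 and Cbr2) and 2 lower (Lyve1 and Timd4). All 5 monocyte genes were called higher from 6 h on. The 5 fibroblast genes summed to 330.2 to 369.7 FPKM in sham and 1641 to 1871 at 72 h, with all 5 called higher at 72 h and 1 lower at 6 h. Col1a1, a collagen chain, was 16.3 FPKM in sham and 949 at 72 h (5.77). The 5 endothelial genes summed to 439.6 to 492 FPKM in sham and 372 to 478 at 72 h, with 3 called lower at 72 h. Beside the counts of these lists, the share of all genes called higher was 11.5% at 6 h, 26.1% at 24 h and 53.1% at 72 h. The share called lower was 16.6% at 6 h and 24.2% at 72 h. The parts of these cell types in the class II levels were not tested.

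Across the whole table, the summed cardiomyocyte genes were 33165 to 35544 FPKM in sham and 13737 to 16572 at 72 h. Of these genes 5 of 5 were called lower at 72 h, against 24.2% of all genes. Neutrophil genes ranged from 115 to 990.0 FPKM among the 6 h mice and from 45.1 to 984 among the 24 h mice. The table holds no read counts, and depth relative to the first sham mouse, estimated from the smallest steps in the FPKM, was 0.818 to 1.33. It was 1.33, 1.33 and 1.22 in the 72 h mice and 0.993 and 1.09 in the other sham mice. The part of depth in the values of genes near 0 FPKM was not tested. No 2 libraries were identical.

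The genes whose pattern over the 18 mice was most like the mean of the 7, out of 11991 compared, were Unc93b1 (Pearson r = 0.993), Prkcb (0.991), Csf1r (0.990), Daglb (0.989), Pld4 (0.988), Snx8 (0.988), Ttyh3 (0.988), Gltp (0.987), Tmem263 (0.987) and Tmed3 (0.987). Unc93b1, which carries Toll-like receptors to the endosome, was 13.1 FPKM in sham, 6.85 at 6 h, 20.4 at 24 h and 104 at 72 h. Csf1r, the receptor of the macrophage growth factor CSF1, was 45.3, 32.9, 77.0 and 295 FPKM in these groups. Both were lowest at 6 h, as the class II genes were.

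For Ciita alone the 10 closest included Cybb (0.991), Myof (0.990), Anxa5 (0.988), Col5a2 (0.988), Hps1 (0.988), Lyz2 (0.988), Tmed3 (0.988), Scpep1 (0.988) and Adamts2 (0.987). Cybb, a subunit of the phagocyte NADPH oxidase, was 2.097 FPKM in sham, 1.38 at 6 h, 5.25 at 24 h and 29.1 at 72 h. For Cd74 alone they included Unc93b1 (0.989), Ergic3 (0.988), B3gnt8 (0.987), Ttyh3 (0.987), Pla2g15 (0.986), Vkorc1 (0.984), Daglb (0.984), Pld4 (0.984) and Sp110 (0.984). With 3 mice per group these correlations mainly describe the 6 group means, and all points share libraries.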

How the data were processed

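RNA-seq was done by the authors on 18 hearts, 3 per group. Per the labels and the study's methods, reads were trimmed with cutadapt 1.18, mapped to mm10 with HISAT2 2.1.0 and quantified with StringTie 1.3.4d; the annotation is not given in the sources used here. In the deposited table each gene symbol has 1 FPKM value per mouse, taken without further scaling, and every sample column was used. The test of the authors needs the reads and was not repeated.

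Of 24419 symbols, the 13333 that reached 1 FPKM in any mouse were analysed as log2(FPKM + 1) with limma 3.58.1 in R 4.3.3 (lmFit, eBayes with a variance trend). Each comparison used its own 6 mice, the tests were two-sided, p was adjusted by Benjamini-Hochberg across the genes tested, and "called" means an adjusted p under 0.05. Genes with the same value in all 6 mice were dropped. The fit was tested on simulated data. Levels, exact permutation tests and figures were made with Python 3.11.15, pandas 2.3.3, scipy 1.17.1 and matplotlib 3.10.9.

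The 7 genes and the gene lists were chosen with earlier results of these data known. Named were all 7 genes, a listed set of pathway genes, the 3 largest called changes of each list at a time, and the 10 genes with the highest correlation among those with a mean FPKM of at least 1. Other genes were named after their values were seen. Some genes that this rule names are not reported here. Some column names differ in a letter from the sample titles. The FPKM give no counting error, so precision rests on the spread of 3 mice, which the labels describe as separate animals.

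Alternatives were leaving the filter out or setting it on the mean FPKM, a pseudocount of 0.1, quantile normalization, median-of-ratios scaling, a fit over all 18 mice, a replicate block, no variance trend and leaving out each mouse. Same-numbered mice did not deviate together in every pair (r from -0.33 to 0.41), so replicate numbers were not taken as pairs.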

Additional observations from a re-analysis of the deposited data

Results flagged for a closer look

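The level of all 7 genes differed between AMI groups of successive times, by direct limma tests of one group against another (3 mice against 3). There is no sham group for each time, so time after operation is not separated from ligation. From 6 h to 24 h the log2 fold changes were 0.84 for H2-Aa, 1.24 for H2-Ab1, 0.71 for H2-Eb1, 1.56 for H2-DMa, 1.41 for H2-DMb1, 0.65 for Cd74 and 0.54 for Ciita, with no overlap of the mice in any of them. From 24 h to 72 h they were 1.81 for H2-Aa, 1.53 for H2-Ab1, 1.69 for H2-Eb1, 1.17 for H2-DMa, 1.26 for H2-DMb1, 1.47 for Cd74 and 0.98 for Ciita. The first of these sets lost all its calls without the second or the third 6 h mouse or the second 24 h mouse, and the other kept them. Ciita was tested only because the 72 h mice reached 1 FPKM of it. Groups of 3 mice were not screened for single outlying mice.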

How the results depend on the processing

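Of 681 values of single genes under the alternatives, 597 kept their direction and side of the threshold, 68 kept the direction but lost the call, 1 gained it (Cd74 at 24 h without the first 24 h mouse) and 15 changed sign, with adjusted p from 0.400 to 0.998. The counts at 10 min and 1 h stayed at 0, and those at 72 h against sham and against 24 h stayed at 7, Ciita included. The count of 5 lower at 6 h was 3 with no filter, 3 with median-of-ratios scaling, 3 with the replicate block and 2 to 4 with 1 mouse left out. The count of 4 higher at 24 h was 2 to 5 with 1 mouse left out. The count of 7 higher from 6 h to 24 h was 3 with no filter, 4 with median-of-ratios scaling, 3 with quantile normalization, 0 with the replicate block (limma, 7 at an unadjusted p under 0.05) and 0 to 6 with 1 mouse left out. More genes are adjusted for with no filter, and the other causes were not tested. At 10 min the sign changed for H2-Aa with median-of-ratios scaling (-0.0215) and quantile normalization (-0.00887) and for H2-DMb1 with the same settings (-0.00743 and -0.0114). With 1 mouse left out the 10 min values ran from -0.19 to 0.16 for H2-Aa, -0.13 to 0.30 for H2-Ab1, -0.14 to 0.14 for H2-Eb1, -0.0199 to 0.233 for H2-DMa, -0.21 to 0.19 for H2-DMb1 and -0.13 to 0.16 for Cd74, Ciita at 6 h from -0.0500 to 0.00658, and H2-Eb1 at 24 h from -0.00470 to 0.302. The difference to pan-leukocyte genes was 2.30 in sham and 2.01 at 1 h with a pseudocount of 0.1. With macrophage genes as reference it was 0.0630 in sham, 0.152 and -0.0203 after 10 min and 1 h, -0.437 and -0.347 after 6 h and 24 h, and -1.32 after 72 h. No read counts were given, so the precision of low genes such as Ciita is not known beyond the spread of the mice.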
